A study of Mus musculus with 9 samples.

Results

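The 41 genes described here encode the lysosome's limiting membrane, the enzymes that work inside it, the proton pump that acidifies it and the transcription factors that switch these genes on. They were chosen by symbol, and all 41 were among the 40879 gene symbols of the count tables. All 41 also passed the filter on low counts that left 13251 genes to test. Expression was measured in type 2 conventional dendritic cells (cDC2s), which flow cytometry isolated from cultures of mouse bone marrow grown for 9 days in 100 ng/ml Flt3L, the cytokine that drives dendritic cell development. WT cultures were compared with WT cultures given interferon alpha (IFNa) on day 5, and with cultures labelled A20iKO (A20 KO below), of genotype A20fl/fl x CD11ccre. In that genotype a Cre recombinase driven by the CD11c promoter, which is active in dendritic cells and some macrophages, acts on a floxed Tnfaip3 gene, which encodes the ubiquitin-editing enzyme A20. Each group held 3 libraries, and the 3 WT libraries serve as controls in both comparisons against WT. The design text gives 3 mice for each group. The labels do not say that each library is 1 mouse, so p-values measure the spread between these libraries. A general treatment entry names IFNa for all 9 libraries, whereas the titles and a separate treatment tag name it for only 3, and groups follow the titles.

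A lysosome degrades what a cell eats or recycles. Its proton pump, the V-ATPase, has a membrane sector (V0) that passes protons and a catalytic sector (V1) that splits ATP to drive them, and the acid it makes activates the hydrolases. LAMP proteins coat the membrane from within, and the factors TFEB, TFE3 and MITF bind E-box motifs, among them the CLEAR element, in the promoters of many lysosomal genes. In dendritic cells the same compartment cuts proteins into the peptides that are loaded on MHC class II, and its acidity and protease content set how fast antigen is destroyed.

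Libraries held 6900598 to 10552756 counts. Tnfaip3, whose 3' tags need not lie in the deleted part and so do not check the knockout, stood at 232, 51 and 42 counts in WT, 73, 84 and 74 under IFNa, and 285, 476 and 377 in those labelled A20 KO, where it was thus higher and not lower. The summed level of 10 cDC2 markers was 13868 to 17885 CPM (counts scaled to a common library size) in WT, 9963 to 12045 under IFNa and 7089 to 8242 in A20 KO. The sum of 12 macrophage markers ran the other way, from 295 to 360 CPM in WT through 558 to 660 with IFNa to 1214 to 1328 in A20 KO. The cDC2 sum was mostly H2-Ab1 and Cd74, with WT means of 8487 and 5911 CPM beside 16310 for the sum. With IFNa, 3 of the 10 cDC2 markers were called lower and 7 were not called. Of the 12 macrophage markers, 4 were called higher and 1 lower with IFNa. In A20 KO against WT, 8 of the 10 cDC2 markers were called lower and Sirpa was called higher, while 9 of the 12 macrophage markers were called higher and Adgre1 lower. Other lists moved between groups as well. Summed markers of mature dendritic cells stood at 142 to 226, 367 to 446 and 939 to 1201 CPM in WT, IFNa and A20 KO, those of mast cells and basophils at 29.4 to 66.6, 102 to 167 and 177 to 198 CPM, and those of neutrophils at 84.3 to 101, 269 to 331 and 202 to 283 CPM. Those of cDC1s stood at 205 to 258, 97.7 to 121 and 31.4 to 71.2 CPM, and those of plasmacytoid dendritic cells at 528 to 668, 580.4 to 595 and 678 to 822 CPM. In A20 KO against WT, 4 of 5 tested markers of mature dendritic cells and 3 of 5 of mast cells and basophils were called higher, and 3 of 6 of cDC1s lower. Of 5 tested markers of plasmacytoid dendritic cells, 3 were called higher there (Tcf4, Ly6d and Cox6a2) and 1 lower. That 1 was Siglech, with means of 241 CPM in WT and 62.8 CPM in A20 KO, so this sum also hides opposite changes. Of 7 tested neutrophil markers, 2 were called higher and 2 lower in that comparison, so their sum hides opposite changes. Mean levels in WT and A20 KO were 1.79 and 65.3 CPM for Mpo and 0.593 and 174 CPM for Prtn3, both called higher. For S100a8 they were 36.4 and 5.98 CPM and for S100a9 47.8 and 4.84 CPM, both called lower. Macrophage, mature dendritic cell and mast cell sums thus stood in the same rising order of groups as Cd63, Lamp1, Mitf and Atp6v1b2 below. The cDC2 and cDC1 sums stood in the same falling order as Ids, Man2b1 and Gm2a below. Of 8 osteoclast markers, which matter here because osteoclasts are rich in lysosomal and pump genes, Calcr and Oscar were at 0 in every library, Ctsk had at most 14 counts, and the sum was 5.21 to 16.9, 8.59 to 19.3 and 31.9 to 41.8 CPM in WT, IFNa and A20 KO. Stromal markers varied within each group, from 677 to 3853 CPM in WT, 525 to 4321 under IFNa and 408 to 3966 in A20 KO, and were highest in WT replicate 2, IFNa replicate 3 and A20 KO replicate 1. The most abundant row of the tables, Gm26917, took 5.21% to 11.4% of counts in WT, 12.2% to 17.3% under IFNa and 12.3% to 13.8% in A20 KO. The part of other cell types in the lysosomal differences below was not tested, and in bulk libraries fewer cells of a type and less RNA per cell cannot be told apart.

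The promoters of several members carry the E-box letters CACGTG. Stretches upstream of the annotated start are shown for 5 of them because TFEB-family genes are among those that differed. RefSeq start sites gave a window of 250 bases before to 50 bases after the start for 36 of the 41 genes, on build GRCm38.p6. Capitals mark CACGTG or, where its flanks also match, the longer CLEAR-like motif TCACGTGA. Both motifs read the same on either strand, and every match to the longer one contains the shorter.
Lamp1, chr8:13159080-13159160, plus strand: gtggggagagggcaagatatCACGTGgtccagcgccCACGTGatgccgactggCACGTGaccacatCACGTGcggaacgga
Cln3, chr7:126583332-126583405, minus strand: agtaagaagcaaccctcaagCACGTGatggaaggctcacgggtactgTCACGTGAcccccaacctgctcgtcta
Mcoln1, chr8:3500428-3500499, plus strand: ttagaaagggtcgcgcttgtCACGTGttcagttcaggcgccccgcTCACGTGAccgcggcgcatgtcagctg
Gla, chrX:134601174-134601252, minus strand: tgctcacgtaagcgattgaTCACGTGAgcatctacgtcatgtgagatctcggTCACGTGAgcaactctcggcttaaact
Atp6v1a, chr16:44139365-44139410, minus strand: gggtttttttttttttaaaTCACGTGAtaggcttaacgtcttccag
Lamp1 holds 4 copies of CACGTG between 61 and 15 bases before its start. The end of the Atp6v1a window was not found in an annotated transcript of that gene. The same holds for windows of Ctsa and Atp6v0d1, which also carry TCACGTGA and are not printed. CACGTG was found in 11 of the 36 members (30.6%) and in 8.09% of the 27025 genes with a window of that length, and TCACGTGA in 6 of 36 (16.7%) against 1.12%. The 5 genes printed did not behave alike in the data below. Lamp1 rose in A20 KO, Cln3 fell, and Mcoln1, Gla and Atp6v1a did not pass the test. Among members called in A20 KO against WT, CACGTG lay in the window of 1 of 4 called higher and 1 of 5 called lower, and it lay in 9 of 27 members that were not called. A match is a description of letters in this window and does not show a bound factor.

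Members of the group differed in direction. Against WT, 5 of 41 rose in A20 KO (Cd63, Mitf, Lamp1, Atp6v1b2 and Grn) and 5 fell (Gm2a, Ids, Atp6v0a1, Cln3 and Man2b1), by edgeR's quasi-likelihood test with Benjamini-Hochberg adjustment over all genes tested at 0.05. The same call was made for 5.77% of all genes in the upward direction and 4.91% in the downward direction, against 12.2% of members in each. With IFNa, Cd63 and Grn rose and Gm2a fell, where 2.4% of all genes were called higher and 0.702% lower. All 3 moved in the same direction in both comparisons, which share their WT libraries. In A20 KO against IFNa, Lamp1 was higher and Gm2a, Cln3, Ids and Atp6v0a1 were lower, beside 2.05% of all genes called higher and 3.41% lower. The other 31 members were called in none of the 3 comparisons. The median log2 fold change of the 41 members was 0.09 in A20 KO against WT, where the median of all genes was -0.01, and it was -0.14 with IFNa against -0.03 for all genes. Scaling by library totals alone moved the all-gene median of IFNa against WT to -0.15 and that of A20 KO against IFNa to 0.12, and the members' median with IFNa to -0.27. It also moved the share of higher genes among all calls from 77.4% to 60.9% under IFNa and from 37.5% to 49.3% in A20 KO against IFNa.

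The libraries can also be compared without a test. In A20 KO, 7 members had all 3 libraries above all WT libraries and 8 had all 3 below, while 28% of all genes did not overlap between these groups. With IFNa, 7 members lay above and 5 below, beside 18.2% of all genes without overlap. Between A20 KO and IFNa, 10 lay above and 7 below, beside 24.6%. Lamp1, Cd63, Mitf and Atp6v1b2 rose in level from WT through IFNa to A20 KO with no overlap between neighbouring groups, an order held by 1.5% of all genes. Ids, Man2b1 and Gm2a held the reverse order, as 1.31% of all genes did. The 41 genes together took 0.862% to 0.936% of counts in WT, 0.733% to 0.841% under IFNa and 0.812% to 0.824% in A20 KO. Every A20 KO and IFNa library thus lay below every WT library in the summed share, in which Psap and Gm2a are the most abundant genes. These shares are of library totals, without the scaling used for CPM. Gm26917 took 5.21% to 11.4% of the totals in WT, 12.2% to 17.3% under IFNa and 12.3% to 13.8% in A20 KO. The order of the groups need not hold after scaling, which was not tested. Without Psap and Gm2a the share was 0.493% to 0.535% in WT, 0.485% to 0.549% under IFNa and 0.572% to 0.589% in A20 KO. In that share every A20 KO library lay above every WT library, and IFNa overlapped WT.

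**Figure D1:**
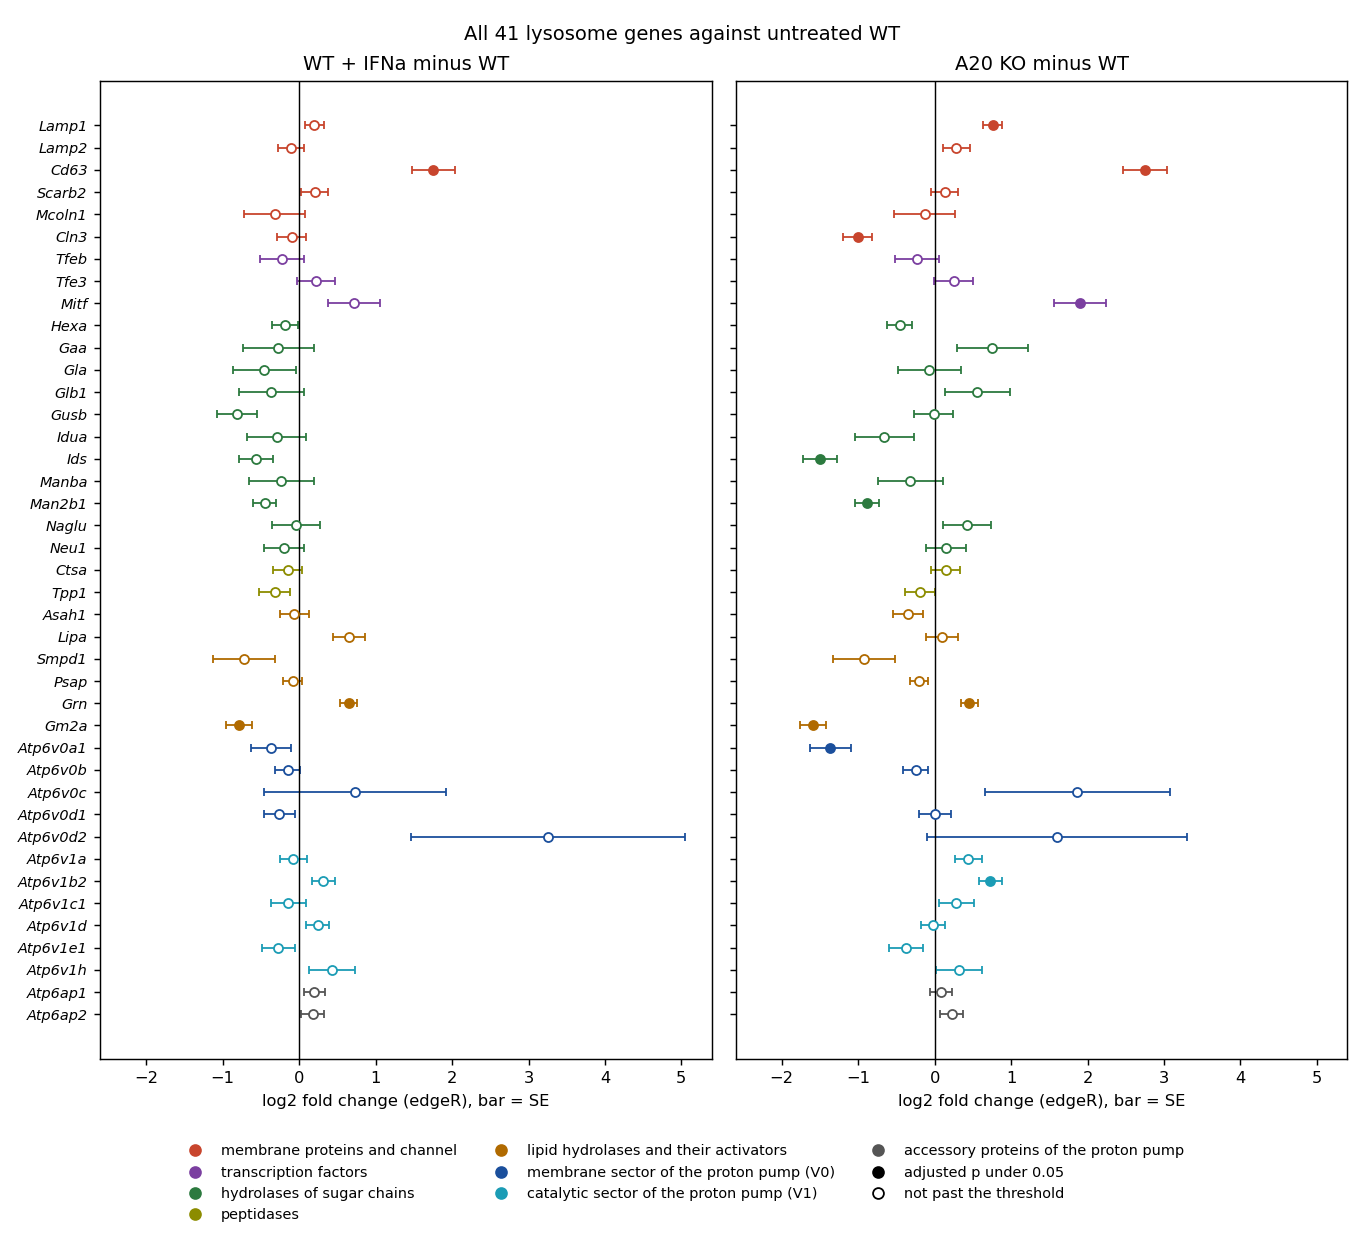
Log2 fold change of each of the 41 genes, in rows grouped and coloured by role, for WT with IFNa against WT (left) and A20 KO against WT (right), with the standard error of the edgeR estimate as a horizontal bar. Filled points passed an adjusted p of 0.05: 3 genes on the left and 10 on the right, and the widest bars are those of Atp6v0c and Atp6v0d2, the members with the fewest counts.

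Of the 6 membrane genes, Cd63 and Lamp1 rose in A20 KO (33.3%) and Cln3 fell (16.7%), beside 5.77% and 4.91% of all genes. In a set this small a single call is a large share. Cd63 encodes a tetraspanin of late endosomes, lysosomes and exosomes, and it had the largest change of any member in A20 KO against WT. It stood at 40.1, 101 and 50.2 CPM in the WT libraries, 209, 193 and 244 CPM with IFNa and 479.5, 409 and 398 CPM in A20 KO. Every IFNa library lay above every WT library and every A20 KO library above every IFNa library. Its log2 fold change was 2.75 ± 0.29 (SE) in A20 KO against WT, a 6.73-fold difference with an edgeR adjusted p of 4.09e-05, and 1.76 ± 0.28 with IFNa (edgeR adjusted p = 0.0027). A20 KO exceeded IFNa by 0.99 ± 0.27, just short of the threshold (edgeR adjusted p = 0.0522), although the difference passed with DESeq2 (0.00271) and limma voom (0.00478). Under 12 of 20 alternative settings this difference stayed uncalled. Within each group Cd63 was highest in the library with the most stromal transcripts. Leaving out those 3 libraries gave edgeR log2 fold changes of 3.16 in A20 KO and 2.16 with IFNa against WT, and 1.00 between A20 KO and IFNa (edgeR adjusted p = 0.00425).

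Lamp1 encodes the most abundant glycoprotein of the lysosomal membrane, and among these genes its promoter carries the 4 E-box cores printed above. It stood at 415, 399.5 and 382 CPM in the WT libraries, 456, 490.3 and 428 CPM with IFNa and 685, 659 and 680.5 CPM in A20 KO. The A20 KO libraries lay close together and well above the other 6, and the IFNa libraries lay only just above WT. The A20 KO difference from WT was 0.76 ± 0.12 on the log2 scale (1.69-fold, edgeR adjusted p = 0.00108), and that from IFNa was 0.56 ± 0.12 (edgeR adjusted p = 0.0144). IFNa against WT did not pass (0.20 ± 0.12, edgeR adjusted p = 0.557). The difference from IFNa no longer passed without IFNa replicate 3 (edgeR adjusted p = 0.06), A20 KO replicate 2 (0.0638) or A20 KO replicate 3 (0.0679). Lamp2, the related glycoprotein that also serves chaperone-mediated autophagy, averaged 229 ± 34.1 CPM (SD, n = 3) in WT, 212 ± 11.8 under IFNa and 279 ± 50 in A20 KO, with overlapping libraries and no call. The difference between the 2 LAMP genes in response was not tested.

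Cln3 encodes a membrane protein of the lysosome whose loss causes juvenile Batten disease. It stood at 120.2, 108 and 82.6 CPM in the WT libraries, 99.8, 98.3 and 92.1 CPM with IFNa and 46.4, 56.8 and 51.7 CPM in A20 KO. WT and IFNa libraries overlapped, and all A20 KO libraries lay below both. Cln3 fell to 0.498 of the WT level in A20 KO (edgeR adjusted p = 0.00348), and its log2 fold change against IFNa was -0.91 ± 0.19 (edgeR adjusted p = 0.0122). The second call was lost without IFNa replicate 1 (edgeR adjusted p = 0.0572), without A20 KO replicate 3 (0.0522) and without the 3 libraries of highest stromal level (0.0542). The last 2 membrane genes overlapped between all groups and were not called. Scarb2, the receptor that carries glucocerebrosidase to the lysosome, averaged 104 ± 5.76, 119 ± 21.6 and 114 ± 13.5 CPM (SD, n = 3) in WT, IFNa and A20 KO. Mcoln1, the calcium channel TRPML1, was low at 13.4 ± 3.84, 10.7 ± 1.82 and 12.2 ± 1.66 CPM.

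**Figure D2:**
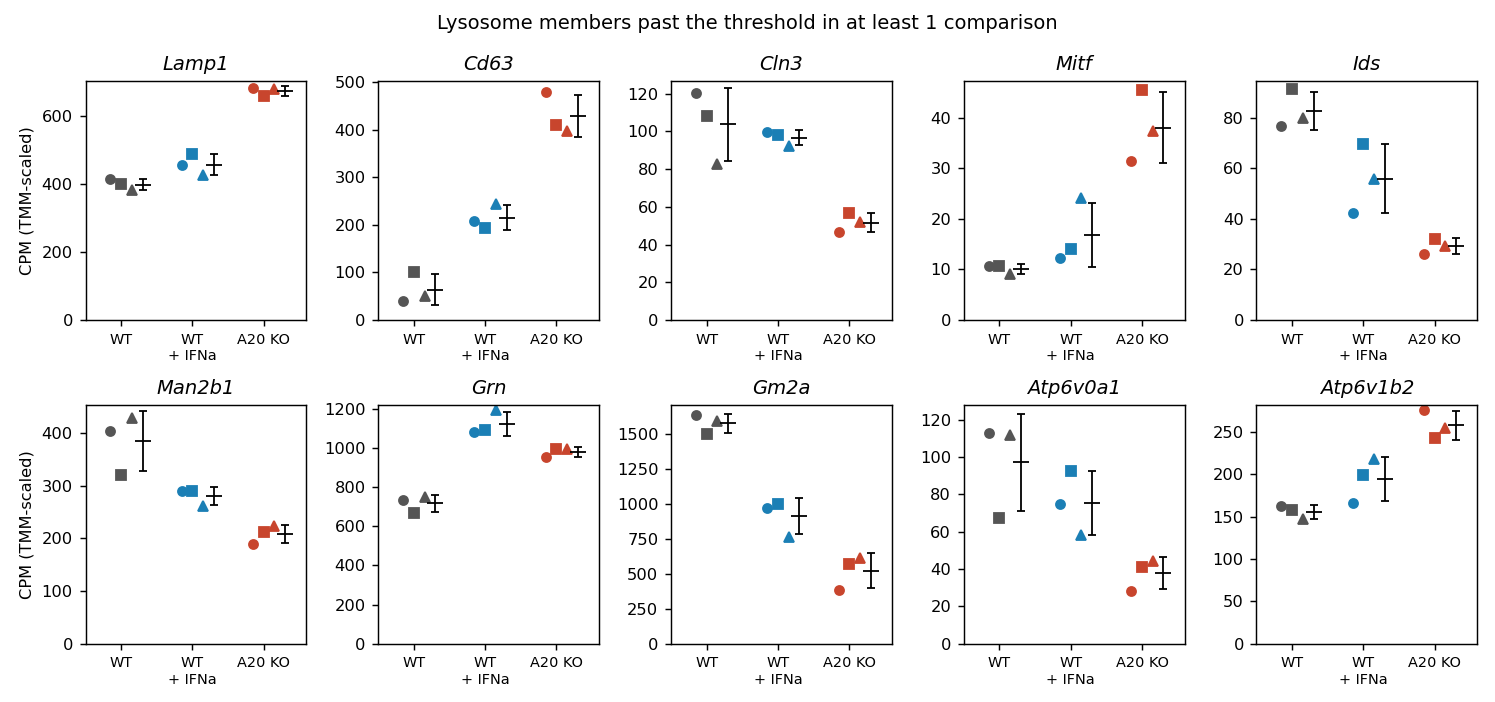
Level in CPM (vertical axes, from 0) of the 10 members past the threshold in at least 1 comparison, in WT, WT under IFNa and A20 KO. Circles, squares and triangles are replicates 1, 2 and 3, and black bars show mean ± SD of 3 libraries. Cd63, Lamp1, Mitf and Atp6v1b2 step up across the groups, and Gm2a, Ids and Man2b1 step down.

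Of the 3 transcription factors, Mitf rose in A20 KO (33.3%, beside 5.77% of all genes), and Tfeb and Tfe3 did not pass the test. Mitf encodes the factor best known from pigment cells, mast cells and osteoclasts. It stood at 10.8, 10.7 and 9.02 CPM in the WT libraries, 12.3, 14 and 24 CPM with IFNa and 31.4, 45.4 and 37.3 CPM in A20 KO. All A20 KO libraries lay above all IFNa libraries, and the IFNa libraries lay above WT, with IFNa replicate 3 well above the other two. The A20 KO difference from WT was 1.90 ± 0.34 on the log2 scale (3.74-fold, edgeR adjusted p = 0.00269). Against IFNa it was 1.18 ± 0.34 and missed the threshold (edgeR adjusted p = 0.0626), but passed without IFNa replicate 3 (1.53, edgeR adjusted p = 0.034). Under 12 of 20 alternative settings the difference from IFNa stayed uncalled. IFNa against WT gave 0.72 ± 0.34 (edgeR adjusted p = 0.403). Tfeb, the factor first tied to the CLEAR element, averaged 43.2 ± 7.41, 36.9 ± 11.7 and 36.9 ± 9.12 CPM (SD, n = 3) in WT, IFNa and A20 KO. Tfe3, its close relative, averaged 44 ± 4.51, 51.3 ± 16.2 and 52.2 ± 7.8 CPM. Tags at the 3' end do not tell Mitf isoforms apart. These factors are controlled largely by where in the cell they are held, which RNA does not show.

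Genes around these factors were taken from a list of 35 tested genes of the TFEB family and of nutrient control, of which 2 rose and 5 fell in A20 KO against WT and none was called with IFNa. The shares in A20 KO were 5.71% higher, near the 5.77% of all genes, and 14.3% lower, beside 4.91%. Tfec, the fourth family member and one restricted largely to myeloid cells, was near 0 in WT and stood at 27.8, 22.7 and 42.9 CPM in A20 KO. Its log2 fold change was 5.29 ± 1.44 (edgeR adjusted p = 0.032), and the call was lost without WT replicate 1 (0.0723), WT replicate 3 (0.107), A20 KO replicate 2 (0.0593) or A20 KO replicate 3 (0.101). Gpnmb, a lysosomal glycoprotein known as a target of MITF and also one of the macrophage markers above, rose from 19.4 ± 11 CPM in WT to 231 ± 18.1 in A20 KO (11.8-fold, edgeR adjusted p = 4.47e-05), with 51.6 ± 18.7 with IFNa. Flcn and Fnip2 encode partners in the folliculin complex, which lets mTORC1 hold TFEB and TFE3 in the cytoplasm. Flcn fell from 65.9 ± 24.1 to 24.4 ± 4.4 CPM (edgeR adjusted p = 0.0103) and Fnip2 from 83.3 ± 26.6 to 24.2 ± 5.16 CPM (edgeR adjusted p = 0.000564). Ppp3ca, a catalytic subunit of calcineurin, the phosphatase that releases TFEB, fell from 507 ± 43.3 to 269.5 ± 23.4 CPM (edgeR adjusted p = 0.000735). Atg9b, an autophagy gene, was at 3.53 ± 2.37 CPM in WT and had no count in any A20 KO library, at least 30.6-fold lower when the group is set to the floor of 3 counts. Its edgeR adjusted p of 0.0279 rose above the threshold without WT replicate 1 (0.102) or any single A20 KO library (0.0651, 0.0838 and 0.0795). Against IFNa, A20 KO was higher in Gpnmb (2.16) and lower in Fnip2 (-1.99) and Ppp3ca (-0.84) on the log2 scale.

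**Figure D3:**
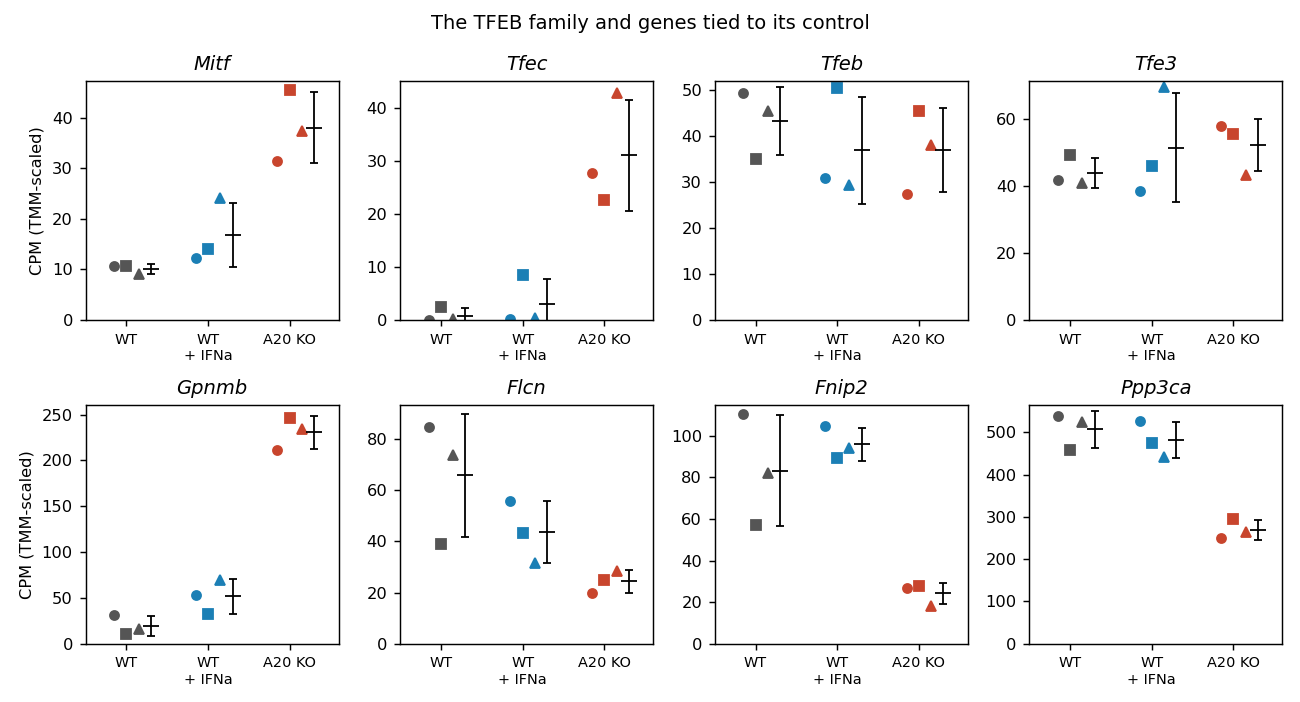
Level in CPM (vertical axes, from 0) of the 4 TFEB-family genes and of Gpnmb, Flcn, Fnip2 and Ppp3ca in WT, WT under IFNa and A20 KO. Circles, squares and triangles are replicates 1, 2 and 3, and black bars show mean ± SD of 3 libraries. Tfec is near 0 in WT and at 22.7 to 42.9 CPM in A20 KO, while Tfeb and Tfe3 overlap across the 3 groups.

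Of the 11 hydrolases of sugar chains, Ids and Man2b1 fell in A20 KO and none rose. These are 18.2% lower and 0% higher, beside 4.91% and 5.77% of all genes. Ids encodes iduronate 2-sulfatase, which removes sulfate from dermatan and heparan sulfate and is missing in Hunter syndrome. It stood at 76.8, 91.2 and 79.7 CPM in the WT libraries, 42.2, 69.6 and 55.9 CPM with IFNa and 26, 32.2 and 29.4 CPM in A20 KO. Each group lay wholly below the one before it. The A20 KO difference from WT was -1.50 ± 0.23 on the log2 scale, which leaves 0.354 of the WT level (edgeR adjusted p = 0.000764). The difference from IFNa was -0.94 ± 0.23 (edgeR adjusted p = 0.0274). That second call was lost without IFNa replicate 2 (edgeR adjusted p = 0.134), IFNa replicate 3 (0.0626) or any of the A20 KO libraries (0.0914, 0.0717 and 0.0939 for replicates 1 to 3), and under other settings given in the closing section. IFNa against WT gave -0.56 ± 0.22 (edgeR adjusted p = 0.277).

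Man2b1 encodes lysosomal alpha-mannosidase, which trims mannose from glycoproteins. It stood at 405, 321 and 429 CPM in the WT libraries, 291, 291 and 261 CPM with IFNa and 189, 212 and 224 CPM in A20 KO. The groups again descended without overlap, and the WT spread was set mostly by the lower value of replicate 2. Man2b1 changed by -0.88 ± 0.15 on the log2 scale in A20 KO against WT (edgeR adjusted p = 0.00183), while the IFNa value of -0.45 ± 0.15 did not pass (edgeR adjusted p = 0.167).

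The remaining 9 sugar hydrolases were not called in any comparison. Hexa, an enzyme of ganglioside breakdown, averaged 212 ± 41.3, 187 ± 14.4 and 155 ± 5.59 CPM (SD, n = 3) in WT, IFNa and A20 KO, and all A20 KO libraries lay below all WT libraries (log2 fold change -0.46 ± 0.17, edgeR adjusted p = 0.109). This difference passed without WT replicate 2 (-0.61, edgeR adjusted p = 0.0288), and it stayed uncalled under 17 of 20 alternative settings. Gusb, beta-glucuronidase, was lowest with IFNa, at 43.3 ± 4.4 CPM against 75.8 ± 25.5 in WT and 75.2 ± 13.1 in A20 KO. All 3 IFNa libraries of Gusb lay below all libraries of both other groups, yet the edgeR adjusted p was 0.153 against WT and 0.112 for A20 KO against IFNa. Without WT replicate 2, the lowest WT library, both passed (edgeR adjusted p = 0.0146 and 0.032). Gusb stayed uncalled under 17 of 20 alternative settings against WT and under 15 of 20 for A20 KO against IFNa. The other 7 were low, with group means from 9.96 to 37.8 CPM. Neu1, the sialidase, averaged 34.1 ± 5.95, 29.7 ± 7.35 and 37.8 ± 1.83 CPM. Gaa, the acid alpha-glucosidase that clears glycogen, averaged 16.9 ± 7.36, 14 ± 2.7 and 28.6 ± 19 CPM, with A20 KO replicate 2 at 50.4 CPM apart from the other libraries. Glb1, beta-galactosidase, averaged 12.8 ± 4.52, 9.96 ± 3.74 and 18.9 ± 4.37 CPM, and Gla, alpha-galactosidase A, averaged 19 ± 8.75, 13.9 ± 2.51 and 18.1 ± 6.85. For these low genes the standard error of a log2 fold change reached 0.47, and none of their differences was called. The same holds for Idua (27.6 ± 8.73, 22.6 ± 7.6 and 17.5 ± 5.89 CPM), which acts on the same glycosaminoglycans as Ids, and for Manba (29.5 ± 15.7, 25.1 ± 1.64 and 23.6 ± 9.05 CPM), the beta-mannosidase. Naglu, an enzyme of heparan sulfate breakdown, averaged 20.4 ± 4.47, 19.8 ± 3.5 and 27.3 ± 6.05 CPM. All 11 sugar hydrolases had a negative log2 fold change with IFNa, from -0.81 for Gusb to -0.04 for Naglu, with a median of -0.29 that moves with the scaling given above, and none of them was called. Over all genes 6884 of 13251 were negative, and for 8 of the 11 the IFNa and WT libraries overlapped. In A20 KO 7 of 11 were negative, with a median of -0.07.

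Of the 2 peptidases neither was called. Ctsa, the protective protein that also stabilises Neu1 and Glb1, averaged 251 ± 34.8, 226 ± 35.4 and 277 ± 59.4 CPM (SD, n = 3) in WT, IFNa and A20 KO. Tpp1, tripeptidyl peptidase 1, averaged 119 ± 22.2, 95.5 ± 4.09 and 105 ± 21.9 CPM. The libraries of the 3 groups overlapped for both genes.

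The lipid hydrolases and their activators held the most abundant members, and Gm2a fell while Grn, which is grouped with them here, rose in both conditions. Gm2a encodes the GM2 activator, which lifts the ganglioside GM2 out of the membrane for breakdown and can also move lipids on to CD1 molecules. It stood at 1633, 1498 and 1594 CPM in the WT libraries, 972, 999.6 and 762 CPM with IFNa and 383, 572 and 613 CPM in A20 KO. The 3 groups descended without overlap. The log2 fold change was -0.79 ± 0.17 with IFNa (edgeR adjusted p = 0.0217) and -1.59 ± 0.17 in A20 KO (edgeR adjusted p = 5.83e-05), where 0.332 of the WT level remained. A20 KO lay below IFNa by a further -0.80 ± 0.17 (edgeR adjusted p = 0.014). The IFNa call was lost without WT replicate 1 (edgeR adjusted p = 0.0534), WT replicate 3 (0.0863) or IFNa replicate 3 (0.0761). The call between A20 KO and IFNa was lost without IFNa replicate 1 (0.0576) or IFNa replicate 2 (0.0582), while that between A20 KO and WT held under all 20 alternatives.

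Grn encodes progranulin, a secreted protein that is cut into granulins inside the lysosome. It stood at 735, 666 and 747 CPM in the WT libraries, 1082, 1092 and 1194 CPM with IFNa and 952, 995 and 993 CPM in A20 KO. Both other groups lay above WT, and the IFNa libraries lay above those of A20 KO. The log2 fold change was 0.65 ± 0.11 with IFNa (1.57-fold, edgeR adjusted p = 0.00474) and 0.45 ± 0.11 in A20 KO (1.37-fold, edgeR adjusted p = 0.0191). The 2 conditions did not differ by the test (-0.20 ± 0.11, edgeR adjusted p = 0.438). The A20 KO call was lost without WT replicate 2 (edgeR adjusted p = 0.0638), WT replicate 3 (0.0562), A20 KO replicate 2 (0.097) or A20 KO replicate 3 (0.0853).

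Psap, the precursor of the saposins that help several lipid hydrolases, was the most abundant member, at 2036 ± 295, 1917 ± 111 and 1766 ± 105 CPM (SD, n = 3), and was not called. Without the 3 libraries of highest stromal level it was called lower in A20 KO than in WT (log2 fold change -0.37, edgeR adjusted p = 0.0196). Under 19 of 20 alternative settings Psap stayed uncalled in that comparison. Lipa, acid lipase, which frees cholesterol from its esters, averaged 237 ± 49.4 CPM with IFNa against 150.4 ± 27.7 in WT and 160.5 ± 32.8 in A20 KO. IFNa replicates 1 and 2 stood at 262 and 269 CPM but replicate 3 at 180.2, within the WT range, and the difference did not pass (log2 fold change 0.66 ± 0.21, edgeR adjusted p = 0.151). Smpd1, acid sphingomyelinase, averaged 23.6 ± 5.09, 14.3 ± 2.46 and 12.4 ± 6.55 CPM in WT, IFNa and A20 KO, with an edgeR adjusted p of 0.198 in A20 KO. Asah1, acid ceramidase, averaged 71 ± 4, 67.9 ± 7.3 and 55.8 ± 8.61 CPM and was not called.

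Among the 13 proton pump members 1 rose and 1 fell in A20 KO, 7.69% in each direction and near the 5.77% and 4.91% of all genes, and none was called with IFNa. Atp6v1b2 encodes the B2 subunit of the catalytic head. It stood at 163, 158 and 147 CPM in the WT libraries, 166, 199 and 217 CPM with IFNa and 275, 242 and 255 CPM in A20 KO. The groups ascended without overlap, IFNa replicate 1 lying just above the highest WT library. The A20 KO difference from WT was 0.73 ± 0.15 on the log2 scale (1.65-fold, edgeR adjusted p = 0.00698). Its partner in the head, Atp6v1a, averaged 168 ± 14.9, 159.7 ± 15.2 and 229 ± 54.3 CPM (SD, n = 3), with all A20 KO libraries above all others and replicate 3 the highest at 290.3 CPM, but it did not pass (log2 fold change 0.44 ± 0.18, edgeR adjusted p = 0.16). The stalk subunits were not called: Atp6v1c1 averaged 41.5 ± 9.05, 37.6 ± 5.87 and 50.6 ± 2.63 CPM, and Atp6v1d averaged 148 ± 5.17, 174 ± 17.3 and 145 ± 16. Atp6v1e1 averaged 103 ± 4.66, 85.2 ± 21.8 and 79.5 ± 15.8 CPM, and the regulatory subunit Atp6v1h 24.8 ± 5.64, 33.4 ± 5.49 and 31 ± 9.68.

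Atp6v0a1 encodes an a subunit, the part of the membrane sector that forms the proton path and directs the pump to a given compartment. It stood at 113, 67.2 and 112 CPM in the WT libraries, 74.8, 92.5 and 58.4 CPM with IFNa and 28.2, 40.9 and 44.3 CPM in A20 KO. All A20 KO libraries lay below all others, and WT and IFNa overlapped. The log2 fold change was -1.36 ± 0.27 against WT, leaving 0.389 of the WT level (edgeR adjusted p = 0.00455), and -0.99 ± 0.26 against IFNa (edgeR adjusted p = 0.0462). The second call was lost without WT replicate 3 (edgeR adjusted p = 0.0608), IFNa replicate 1 (0.126), IFNa replicate 2 (0.188) or any A20 KO library (0.141, 0.116 and 0.077 for replicates 1 to 3). Atp6v0b, a proteolipid of the rotor ring, averaged 369 ± 31.1, 332 ± 39.7 and 311 ± 53.6 CPM (SD, n = 3), and Atp6v0d1, which joins the ring to the stalk, averaged 80 ± 16.1, 66.7 ± 9.81 and 80.2 ± 9.58 CPM. Neither was called. Atp6v0d2, the d isoform typical of osteoclasts and some macrophages, had 0 to 63 counts a library, with 1.66, 0 and 0 CPM in the WT libraries, 2.28, 4.97 and 9.34 CPM with IFNa and 1.97, 0 and 3.26 CPM in A20 KO. All IFNa libraries lay above all WT libraries, and the difference was not called (edgeR adjusted p = 0.504). Atp6v0c, the main proteolipid, had only 0 to 143 counts a library, and a related row, Atp6v0c-ps2, held 653 counts in all against 347 for Atp6v0c, so its level is uncertain because reads shared between such copies could be split or dropped. The accessory proteins Atp6ap1 and Atp6ap2, which help assemble the pump, were not called, at 369 ± 25.2, 424 ± 60.6 and 392 ± 23.8 CPM and at 161 ± 11.1, 182 ± 24 and 188 ± 9.85 CPM.

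Because Atp6v0a1 is 1 of 4 isoforms of the a subunit, its share of that family was computed, a choice made after its values were seen. A share adds up over tags, which do not depend on transcript length. Atp6v0a1 gave 32.9% to 42.7% of a-subunit tags in WT, 22.6% to 27.2% under IFNa and 16.9% to 18.5% in A20 KO, with no overlap between groups. Tcirg1, the a3 isoform that is typical of lysosomes and of the osteoclast membrane, gave 36.9% to 40.4%, 41.5% to 51.7% and 58% to 65.2%. Tcirg1 itself averaged 98.5 ± 17.3 CPM (SD, n = 3) in WT and 134 ± 39.7 in A20 KO and was not called (edgeR adjusted p = 0.322), whereas Atp6v0a1 was. Atp6v0a2, the isoform typical of the Golgi and early endosomes, was highest with IFNa at 90.4 ± 11.8 CPM against 55.9 ± 8.4 in WT and 41.1 ± 7.86 in A20 KO, and A20 KO was lower than IFNa by -1.14 ± 0.22 on the log2 scale (edgeR adjusted p = 0.00698).

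**Figure D4:**
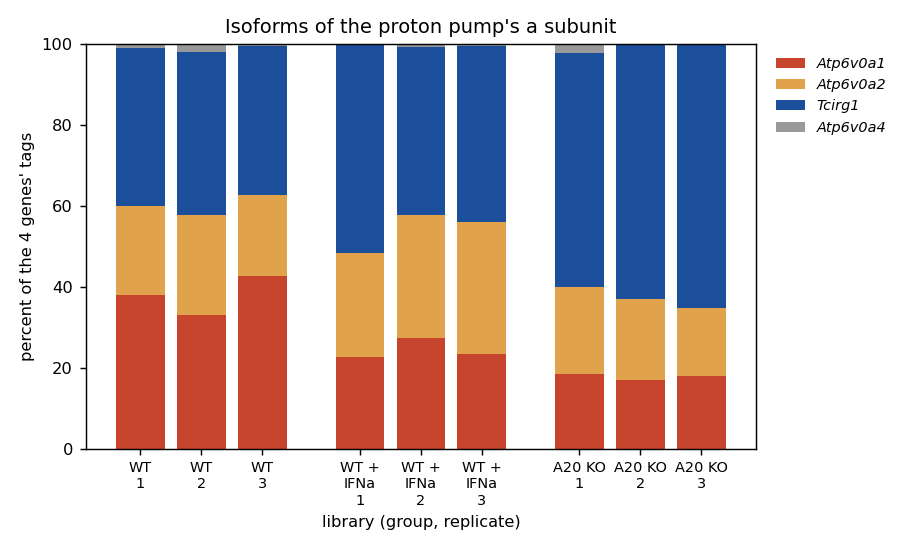
Share of tags (vertical axis, percent) that each of the 4 a-subunit genes contributed in each of the 9 libraries, stacked to 100%. The Atp6v0a1 part shrinks from 32.9% to 42.7% in WT to 16.9% to 18.5% in A20 KO, and Tcirg1 gives 58% to 65.2% there.

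Beyond the 41 genes, 175 further lysosomal genes could be tested, from lists drawn up with earlier results of these data known. Of these, 16 rose and 19 fell in A20 KO against WT, 6 rose and 3 fell with IFNa, and 10 were higher and 8 lower in A20 KO than with IFNa. These are 9.14% and 10.9% of the 175 in A20 KO against WT, beside 5.77% and 4.91% of all genes, 3.43% and 1.71% with IFNa, beside 2.4% and 0.702%, and 5.71% and 4.57% in A20 KO against IFNa, beside 2.05% and 3.41%. Of 13 tested genes of the cathepsins and their control, 5 rose (38.5%) and 1 fell (7.69%) in A20 KO. Ctsd, the aspartic protease that activates other hydrolases, rose from 96.7 ± 18.8 CPM (SD, n = 3) in WT to 204 ± 22.3 under IFNa and 377 ± 33.7 in A20 KO (edgeR adjusted p = 0.0026 and 1.05e-05). Ctsz, a carboxypeptidase, rose 2.15-fold, and Ifi30, the thiol reductase GILT that opens disulfide bonds of antigens, rose 3.15-fold in A20 KO. Ctsc and Ctsb also rose, by 0.69 and 0.64 on the log2 scale, but Ctsc was not called on leaving out replicate 2 or 3 of WT or of A20 KO (edgeR adjusted p = 0.0601, 0.0982, 0.054 and 0.0806), nor Ctsb without WT replicate 2 or A20 KO replicate 2 or 3 (0.0658, 0.0811 and 0.112). Cst3, cystatin C, an inhibitor of cysteine cathepsins and itself a gene typical of dendritic cells, stood at 4956 ± 419.8 CPM in WT, 3376 ± 407 under IFNa and 1116 ± 132 in A20 KO. It fell 4.44-fold in A20 KO (edgeR adjusted p = 4.82e-07). Its smaller fall with IFNa (log2 -0.55, edgeR adjusted p = 0.0288) was lost without any of 6 single libraries, WT replicates 1 and 3, IFNa replicates 2 and 3 and A20 KO replicates 2 and 3 (0.0546 to 0.123). Against IFNa, A20 KO was higher in Ctsd, Ifi30 and Ctsz and lower in Cst3, though Ctsz (edgeR adjusted p = 0.0237) passed only with all 3 libraries of both groups (0.0537 to 0.119 without 1 of them).

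Among 36 further hydrolases 4 rose (11.1%) and 5 fell (13.9%) in A20 KO, beside 5.77% and 4.91% of all genes. Lyz2, lysozyme, moved in opposite directions in the 2 conditions, from 363 ± 48.1 CPM (SD, n = 3) in WT to 129 ± 17.5 with IFNa (edgeR adjusted p = 0.000103) and 698 ± 88.5 in A20 KO (edgeR adjusted p = 0.00178), and the conditions differed by 2.43 ± 0.17 on the log2 scale (edgeR adjusted p = 3.47e-06). Acp2, acid phosphatase 2, was at 16.4 ± 1.31 and 16.5 ± 4.99 CPM in WT and IFNa and rose to 76.4 ± 7.87 in A20 KO (edgeR adjusted p = 0.000164). Pld3, a lysosomal exonuclease, rose from 7.71 ± 5.16 to 48.9 ± 3.6 CPM (edgeR adjusted p = 0.00488). Plbd1 fell under IFNa and in A20 KO, by -1.19 and -1.38 on the log2 scale. Ppt1, a thioesterase, fell 2.12-fold in A20 KO (edgeR adjusted p = 0.00385). Acp2, Lyz2 and Pld3 were higher in A20 KO than with IFNa, but the call of Pld3 (edgeR adjusted p = 0.0422) was lost on leaving out any 1 of the 6 libraries of both groups (0.075 to 0.166).

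**Figure D5:**
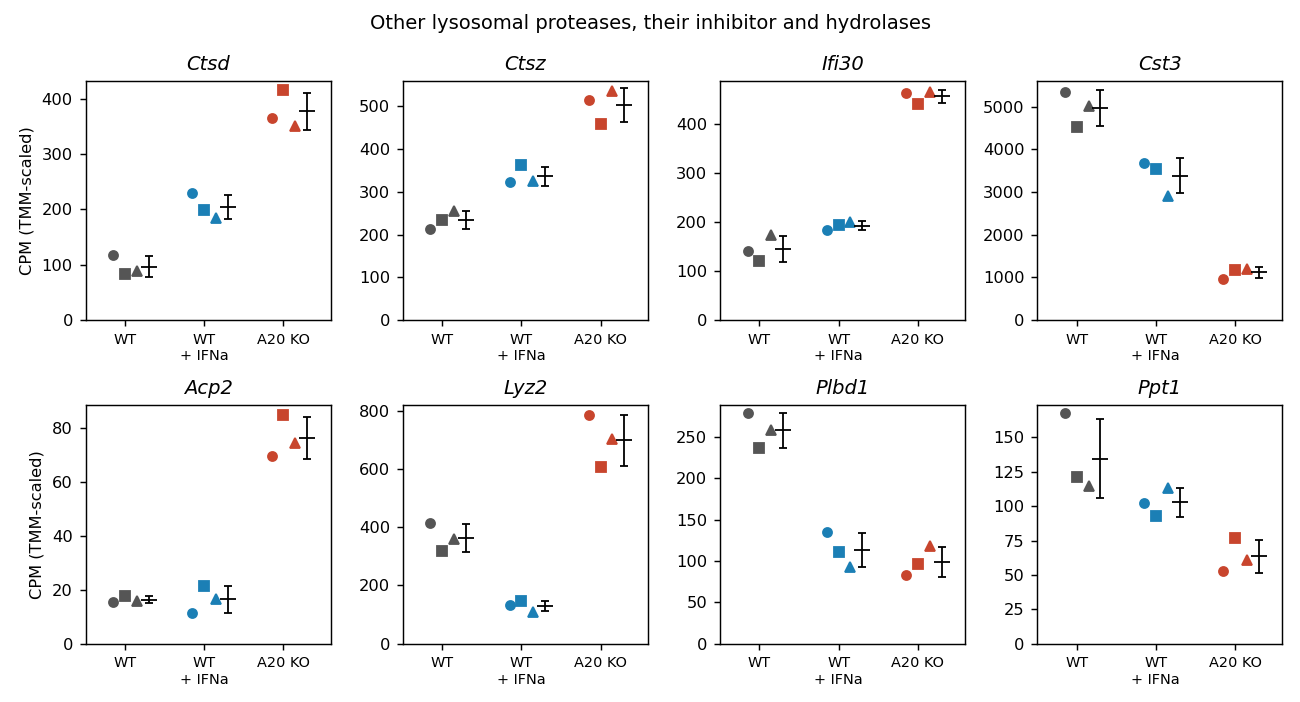
Level in CPM (vertical axes, from 0) of 8 lysosomal genes outside the 41: the proteases Ctsd and Ctsz, the reductase Ifi30, the inhibitor Cst3 and the hydrolases Acp2, Lyz2, Plbd1 and Ppt1. Circles, squares and triangles are replicates 1, 2 and 3, and black bars show mean ± SD of 3 libraries. Lyz2 is lowest under IFNa and highest in A20 KO, while Cst3 steps down across the groups.

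In the other lists, membrane proteins gave 3 genes higher (9.68%) and 1 lower (3.23%) of 31 tested in A20 KO, beside 5.77% and 4.91% of all genes. Slc15a3, a transporter of peptides and histidine, rose 2.88-fold in A20 KO and 2.33-fold with IFNa, and Cd164, a sialomucin, rose 2.46-fold and 2.14-fold, the latter lost without WT replicate 1 (edgeR adjusted p = 0.0577), IFNa replicate 1 (0.079) or IFNa replicate 2 (0.0781). Clcn7, the chloride exchanger, was called higher (log2 1.60) and Laptm5 lower (-0.57) in A20 KO. The Clcn7 call was lost without WT replicate 3 (edgeR adjusted p = 0.0545), A20 KO replicate 2 (0.0574) or A20 KO replicate 3 (0.107), and that of Laptm5 without WT replicate 1 (0.0583), WT replicate 3 (0.0561) or A20 KO replicate 2 (0.0556). With IFNa, Slc29a3, a nucleoside exporter, rose 1.88-fold (edgeR adjusted p = 0.00834). Npc2, which carries cholesterol, was called higher with IFNa (log2 0.49, edgeR adjusted p = 0.0479), but not when any 1 of the WT or IFNa libraries, A20 KO replicate 2 or A20 KO replicate 3 was left out (0.0566 to 0.148). Against IFNa, Laptm5 was lower in A20 KO (-0.78) and Litaf higher (0.72), the latter lost without WT replicate 3, any IFNa library, or A20 KO replicate 2 or 3 (edgeR adjusted p = 0.0601 to 0.216).

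Of 17 further pump subunits and assembly factors, 1 rose and 1 fell in A20 KO, 5.88% each and near the 5.77% and 4.91% of all genes. Rogdi, an assembly factor, rose from 34.6 ± 10.1 CPM (SD, n = 3) in WT to 188 ± 57.2 in A20 KO (edgeR adjusted p = 6.01e-05). Rogdi in A20 KO also exceeded its level with IFNa by 1.36 on the log2 scale. Its rise with IFNa (log2 1.08, edgeR adjusted p = 0.041) was lost without WT replicate 1 or 3, any IFNa library or A20 KO replicate 2 (0.0713 to 0.111). Atp6v0e, a small membrane-sector subunit, fell from 331 ± 7.76 to 201 ± 29.1 CPM in A20 KO (edgeR adjusted p = 0.0147), a call lost without WT replicate 3 (0.0535), A20 KO replicate 1 (0.0506) or A20 KO replicate 2 (0.0748). Of 43 genes of sorting and delivery, 1 rose (2.33%) and 6 fell (14%) in A20 KO, beside 5.77% and 4.91% of all genes. M6pr, the cation-dependent mannose 6-phosphate receptor that brings hydrolases to the lysosome, rose 1.86-fold (edgeR adjusted p = 0.00904; 0.0558 without A20 KO replicate 2). Rab7b, a small GTPase, fell 3.42-fold (edgeR adjusted p = 1.18e-05), and Borcs6, a subunit of the BORC complex that positions lysosomes, fell 2.01-fold (edgeR adjusted p = 0.00422). All 3 also differed from IFNa in the same direction. Rab7, the GTPase of late endosomes, Tsg101, of the ESCRT machinery, and Ap1s2, an adaptor subunit, were called lower by -0.63, -1.02 and -0.81 on the log2 scale. Rab7 was lost without A20 KO replicate 2 (edgeR adjusted p = 0.051) or A20 KO replicate 3 (0.0693), Tsg101 without WT replicate 1 (0.103), A20 KO replicate 2 (0.118) or A20 KO replicate 3 (0.0954), and Ap1s2 without any single A20 KO library or replicate 1 or 3 of WT (0.0538 to 0.119).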

How the data were processed

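The authors deposited 1 table per library of raw counts for each gene symbol, made from QuantSeq 3' tag libraries, in which each read marks a transcript's 3' end and the count does not depend on transcript length. The build was GRCm39 and the tools were featureCounts 2.0.6, STAR 2.7.10b, Bowtie2 and fastp 0.23.1, per the submitters' processing notes. The sources used here do not give the annotation, the strand setting or the handling of reads shared between genes. Groups and replicate numbers came from the titles. Genes were filtered with filterByExpr (minimum count 10, minimum total 15), which kept 99.8% of counts. They were scaled by TMM and tested with edgeR 4.0.16 (R 4.3.3) in 1 quasi-likelihood fit of the 9 libraries (residual degrees of freedom: 6). Benjamini-Hochberg adjustment ran over the 13251 genes, with a threshold of 0.05. CPM values include TMM factors, and shares of counts do not. The script was tested on simulated data. Alternatives were DESeq2 1.42.0, limma 3.58.1 voom, other scalings and filters, a replicate block, a stromal covariate and leaving out libraries. The members and lists were chosen with earlier results of these data known, so no test was run over a list. Every member is named, with each library's value where it was called. Of each further list up to 6 genes of smallest p are named per comparison, apart from some that are not reported here. Promoter windows are RefSeq's on GRCm38.p6, another build than the counts, and the end of 36 of 46 windows was found in an annotated transcript of its gene. Replicate libraries differed beyond sampling noise, with a chi-square per degree of freedom of 14.4 in the closest pair.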

Additional observations from a re-analysis of the deposited data

How the results depend on the processing

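The cause of each shift below was not tested. Counts of members in A20 KO against WT stayed within 1.5 times of 5 higher and 5 lower under every alternative, at 4 to 5 higher and 5 to 6 lower on leaving out 1 library at a time, where the members' median ran from -0.0011 to 0.12. The other 2 comparisons depended more on the settings. With IFNa the count lower was 1, became 2 with library totals only, with no filter, with DESeq2, with the stromal covariate and without the library of highest stromal level in each group, became 0 with the replicate block, and was 0 to 2 without single libraries, where it was 0 without WT replicate 1, WT replicate 3 or IFNa replicate 3 and 2 without WT replicate 2. The members' median with IFNa, -0.14, was -0.27 with library totals only and -0.20 to -0.03 without single libraries, nearest 0 without WT replicate 1 (-0.0271). In A20 KO against IFNa the count higher was 1, became 2 with the stricter filter, 3 with library totals only, no filter or limma voom and 4 with DESeq2, with the fit of the 2 compared groups only, with the stromal covariate or without the libraries of highest stromal level, and was 0 to 3 without single libraries (0 without A20 KO replicate 2 or 3, 2 without WT replicate 1 and 3 without WT replicate 2). The count lower was 4, became 2 with library totals only, limma voom or without the libraries of highest stromal level, and was 1 to 4 without single libraries (1 without IFNa replicate 1, IFNa replicate 2 or A20 KO replicate 3 and 2 without A20 KO replicate 1 or 2). The median, 0.0027, was 0.14 without the libraries of highest stromal level. Of 18 calls on single members, 11 held under all 20 alternatives, 7 were lost under at least 1 and none reversed. Beside losses on leaving out single libraries, Ids in A20 KO against IFNa was lost with library totals only (edgeR adjusted p = 0.0589), limma voom (0.0514) and without the libraries of highest stromal level (0.131), Atp6v0a1 there with library totals only (0.059), limma voom (0.0518) and the block (0.107), Grn in A20 KO against WT with no filter (0.0769), the 2 groups only (0.0506) and the block (0.0519), and Gm2a with IFNa with the block (0.0669). Same-numbered pairs correlated at -0.37 to 0.24 in their deviations from the group means, 1 of 9 above 0.1, and 2 libraries correlated best with their own number. The 3 libraries of highest stromal level, which carry different numbers, correlated with each other at 0.26 to 0.36. The check therefore cannot decide whether the replicate numbers mark pairs. The block gave 253 genes higher and 45 lower with IFNa over all genes, where the fit without it gave 318 and 93. All-gene counts lower with IFNa also moved by over 1.5 times, to 184 with library totals only, 164 with no filter, 210 with DESeq2, 214 with the stromal covariate and 43 to 58 without WT replicate 1, WT replicate 3 or any single IFNa library, and those higher with IFNa moved to 490 with DESeq2. In A20 KO against WT, 765 higher and 651 lower became 480 and 439 without A20 KO replicate 2, and the higher became 478 without A20 KO replicate 3. In A20 KO against IFNa, 271 higher and 452 lower became 430 higher with no filter, 497 with DESeq2, 471 with the 2 groups only and 454, with 742 lower, with the stromal covariate, and 173 and 227, 167 and 273, 145 and 276, and 147 and 303 without IFNa replicate 1, IFNa replicate 2, A20 KO replicate 2 and A20 KO replicate 3. Atp6v0c and Atp6v0d2 had the fewest counts of the members, 0 to 143 and 0 to 63 a library, and the largest standard errors.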
